A study of Mus musculus with 12 samples.

Results

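Unlabelled (Cherry-) lung cells were compared between day 10 and day 5 after tumour cells had reached the lung. The comparison uses the 6 libraries whose titles carry the Cherry- label, 3 at each day, of 12 libraries in the series. The animals were Balb/c females aged 6 to 10 weeks that had received 4T1 labelling cells, a mouse mammary carcinoma line, through a vein. In all groups the lungs were digested to single cells and the cells that stain for neither CD45 nor Ter119 were sorted, so leukocytes and red blood cells were gated out. The remaining 6 libraries, 3 at each day, hold Cherry+ cells of the same sort and enter only where a change is compared with theirs and in the estimate of the spread. All groups carry tumour cells, and the series as given here holds no group of lungs without them. Whether the libraries of a group stem from different mice is not stated, so the p-values describe only how these libraries vary, which may be technical variation.

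As background, the CD45- compartment of the lung holds the gas-exchanging and secretory epithelium, the endothelium of the vessels and capillaries, and fibroblasts, pericytes and smooth muscle. Circulating carcinoma cells that lodge in the capillaries grow into nodules, and the stroma close to a nodule is known to change as it grows. In niche-labelling systems tumour cells release a fluorescent protein that neighbouring cells take up. The unlabelled fraction then stands for lung tissue away from the nodules, and comparing it over time asks whether that tissue changes as the disease advances. What the Cherry label marks in these samples is not spelled out in the labels.

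Each row of the deposited table carries a UCSC known-gene identifier, called a gene here, and a log2 expression level in every library. The table does not pair its identifiers with gene names, and 0 of 32958 matched the gene name, RefSeq, promoter or miRNA tables used here or the GENCODE metadata. Genes are therefore described by level and by behaviour, at most 2 identifiers are given in each direction, and no sequence is shown. Marker genes of lung cell types, of leukocytes or of 4T1 cells could not be read, so the sorted cell type was not checked against markers. In bulk libraries such as these, fewer cells of a type and less RNA per cell cannot be told apart.

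Of the 32958 genes, 7764 were listed at 0 in every library and 25194 held a value. The 15842 genes that reached a log2 level of 3.32 (10 on the linear scale) in at least 3 of the 12 libraries were tested. Library medians of the tested genes ran from 8.79 to 8.82 in Cherry- cells. Read counts were not used here, and the depth of the libraries is unknown.

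Most genes differed little between day 5 and day 10. The difference was under 0.5 log2 units in 14170 of the 15842 genes tested (89.4%), and its median absolute size was 0.16. For 11693 genes (73.8%) the 95% interval of the difference lay wholly within 1 log2 unit of 0, which is a bound of 2-fold in either direction. The median half-width of that interval, which is not adjusted for the number of genes, was 0.48 log2 units. Smaller changes than that could not be told from 0 in a typical gene, even before adjustment. The smallest change called after adjustment was 0.81 log2 units. The genes that passed the test were all higher at day 10. By limma with Benjamini-Hochberg adjustment, 58 genes (0.366% of those tested) were higher at day 10 and 0 were lower at an adjusted p under 0.05.

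The excess of rises was also seen without a significance threshold. Differences of at least 1 log2 unit upwards were found in 420 genes and downwards in 28. In the 24 other fits run, rises of that size numbered between 361 and 783 and falls between 22 and 82, so rises outnumbered falls in each of them. Many of these fits could not alter the counts. Those that change only the estimate of the spread, such as leaving out a Cherry+ library, keep 420 and 28. At an unadjusted p under 0.05, 927 genes (5.85%) were higher and 284 (1.79%) were lower. Among genes whose 3 day 10 libraries all lay on the same side of the 3 day 5 libraries, 1895 (12%) were higher and 1402 (8.85%) were lower. The excess of rises thus lay in the large changes, and was smaller when any separation of the groups was counted whatever its size. The median difference over all genes tested was -0.0049.

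**Figure D1:**
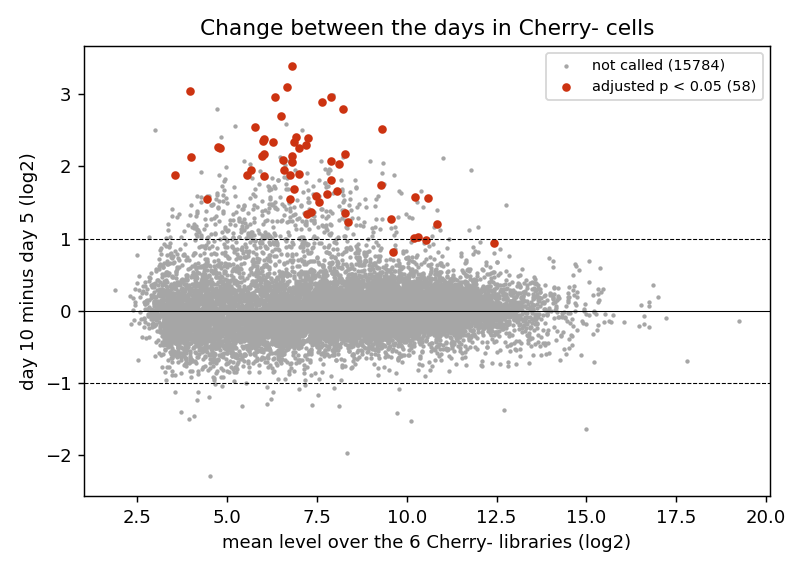
Difference between day 10 and day 5 in Cherry- cells (log2 units, vertical axis) against the mean level over the 6 Cherry- libraries (log2, horizontal axis), 1 point per gene tested, with dashed lines at 1 log2 unit either way. The 58 called genes, in red, all lie above 0, and most of them lie at intermediate levels.

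The 6 libraries were separated by day along their second direction of variation, not along the first. Principal component 1 of the 15842 genes held 53.6% of the variance among the Cherry- libraries. On it day 5 replicate 1 lay at 57.9 and day 10 replicate 2 at 27.8, whereas day 5 replicates 2 and 3 lay at -32.45 and -35.37. Day 10 replicates 1 and 3 lay between them, at 1.11 and -19.0. The days were thus mixed on this component. The libraries stood in the same order by their median over the 25194 genes with a value, which was 6.27 in day 5 replicate 1, 6.08, 5.98 and 5.85 in day 10 replicates 2, 1 and 3, and 5.78 and 5.74 in day 5 replicates 2 and 3. The part of this offset in the results was not tested. Component 2 held 27.9% of the variance. It placed the day 5 libraries at -31.8, -17.0 and -20.3 and the day 10 libraries at 30.9, 27.03 and 11.2 (replicates 1, 2 and 3). The days did not overlap on it, and day 10 replicate 3 lay nearest to day 5. The sign of a component is arbitrary and was set to place the mean of day 10 higher. Whether such a separation would arise without a difference between the days was not tested.

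**Figure D2:**
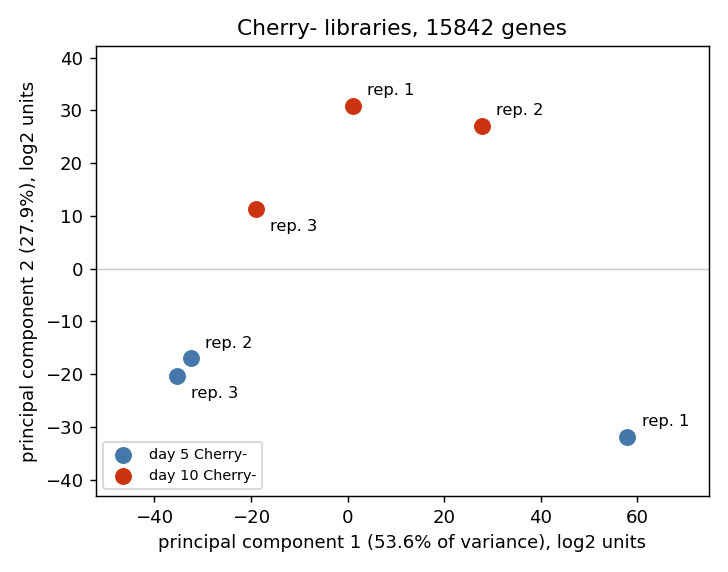
Scores of the 6 Cherry- libraries on principal components 1 (horizontal) and 2 (vertical), in log2 units over 15842 genes, blue for day 5 and red for day 10. Component 1 sets day 5 replicate 1 apart from the other day 5 libraries, and component 2 has all day 5 libraries below 0 and all day 10 libraries above 0.

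Day 5 replicate 1 differed from the other libraries of its group by level. Genes were classed by their mean in the Cherry+ libraries, which does not use the libraries compared. Among the 2793 genes under a level of 5, day 5 replicate 1 lay a median of 0.57 log2 units above the mean of day 5 replicates 2 and 3. Among the 2270 genes over 11 it lay 0.19 below that mean. At day 10 the same measure in the low class was -0.03, 0.26 and -0.25 in replicates 1, 2 and 3. The day 5 libraries were therefore less alike than the day 10 libraries at low levels. The SD of a gene was larger at day 5 than at day 10 in 60.6% of genes, with medians of 0.18 and 0.16 (n = 3).

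Whole profiles from different days were compared with those of the same day by their distance. The root mean square difference between 2 libraries averaged 0.57 log2 units over the 9 pairs from different days, 0.617 over the 3 pairs within day 5 and 0.404 over the 3 within day 10. Day 5 replicates 2 and 3 were the closest pair at 0.327. Day 10 replicate 3 was about as close to day 5 replicate 2, at 0.378, as to day 10 replicate 1, at 0.380. It lay at 0.490 from day 10 replicate 2. The mean distance between days exceeded that within days by 0.0597 (exact two-sided permutation test over the 10 splits of 3 against 3, p = 0.4). The excess was at least as large in 2 of the 10 splits, the true one included. Since the smallest p possible is 0.1, this test cannot show whether the days differ. The excess was 0.142 without day 5 replicate 1, and below 0 without day 10 replicate 1 (-0.0216) or replicate 2 (-0.0098).

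The 58 genes that rose had a median difference of 2.00 log2 units, or 3.99-fold, with a median standard error of 0.30. The smallest rise was 0.81 (1.75-fold) and the largest 3.39 (10.5-fold). The middle of the list lay between 1.56 and 2.34, its lower and upper quartiles. Rises of at least 2 log2 units made up 29 genes, 26 lay between 1 and 2, and 3 were under 1. The lower bound of the 95% interval was at least 1 in 43 of the 58 genes, and in none was it under 0.50.

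In each of the 58 genes the lowest day 10 library was above the highest day 5 library, against 12% of all genes tested that separated upwards. The distance between those 2 libraries had a median of 1.19 log2 units, ran from 0.45 to 2.79, and was at least 1 in 39 genes. Separation of this kind is favoured by the test that chose the genes, and is given as a description. Their mean levels at day 5 ran from 2.43 to 11.95 with a median of 6.03, and at day 10 from 4.49 to 12.89 with a median of 8.13. In 3 of them the day 5 mean was under the minimum of 3.32, so those genes passed the filter through other libraries.

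The calls were concentrated at moderate levels. Of the 2352 genes with a Cherry- mean between 5 and 7, 23 rose (0.978%), and of the 3851 between 7 and 9, 18 rose (0.467%). Of the 2216 genes under 5, 6 rose (0.271%). Between 9 and 11 there were 10 of 5265 (0.19%), and over 11 there was 1 of 2158 (0.0463%). That gene went from 11.95 ± 0.22 at day 5 to 12.89 ± 0.18 at day 10 (SD, n = 3), a rise of 0.94 log2 units (1.92-fold, limma adjusted p = 0.0159). The precision of the test differed between the classes, with a median standard error of 0.36 under 5, 0.32 from 5 to 7, 0.22 from 7 to 9, 0.15 from 9 to 11 and 0.16 over 11. The abundant classes were thus measured most tightly and held few calls. The interval of the difference lay within 1 log2 unit of 0 in 40.8% of genes under 5 and in 90.6% of genes from 9 to 11.

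The 100 most abundant genes, with a Cherry- mean of at least 14.1, differed between the days about as much as other genes. None was called in limma, against 0.366% of all genes tested. An unadjusted p under 0.05 was found in 6, 4 of them higher and 2 lower at day 10. The shares over all genes were 5.85% higher and 1.79% lower, so these counts do not set the 100 genes apart. Their differences ran from -1.65 to 0.69 with a median absolute size of 0.18, against 0.16 over all genes tested, and 87 were under 0.5. For 74 of the 100 the 95% interval lay within 1 log2 unit of 0, against 73.8% of all genes tested and 87.3% of genes over 11.

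The rise was not equal in the 3 day 10 libraries. The mean level of the 58 genes was 6.39, 6.32 and 6.31 in day 5 replicates 1, 2 and 3, and 8.57, 8.53 and 7.86 in day 10 replicates 1, 2 and 3. The choice of these genes favours day 5 libraries that lie close together. Gene by gene the day 5 libraries still varied, with a median SD of 0.26 against 0.18 over all genes tested. At day 10 these medians were 0.44 and 0.16. The spread differs by level, and the 58 genes were not matched to the others by level. Measured from the day 5 mean of each gene, the median rise was 2.33 log2 units in day 10 replicate 1, 2.19 in replicate 2 and 1.52 in replicate 3, whereas over all genes tested it was -0.0037, 0.0065 and 0.0047. Day 10 replicate 3 was the lowest of the 3 in 57 of the 58 genes (98.3%), against 39.95% of all genes tested. Day 10 replicate 1 was the highest in 31 and replicate 2 in 27. The same held for the 420 genes with a difference of at least 1, where replicate 3 was the lowest in 360 and the median rises were 1.69, 1.53 and 1.04. The day 10 libraries thus varied in how far these genes had risen, in 1 direction for nearly all of them.

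**Figure D3:**
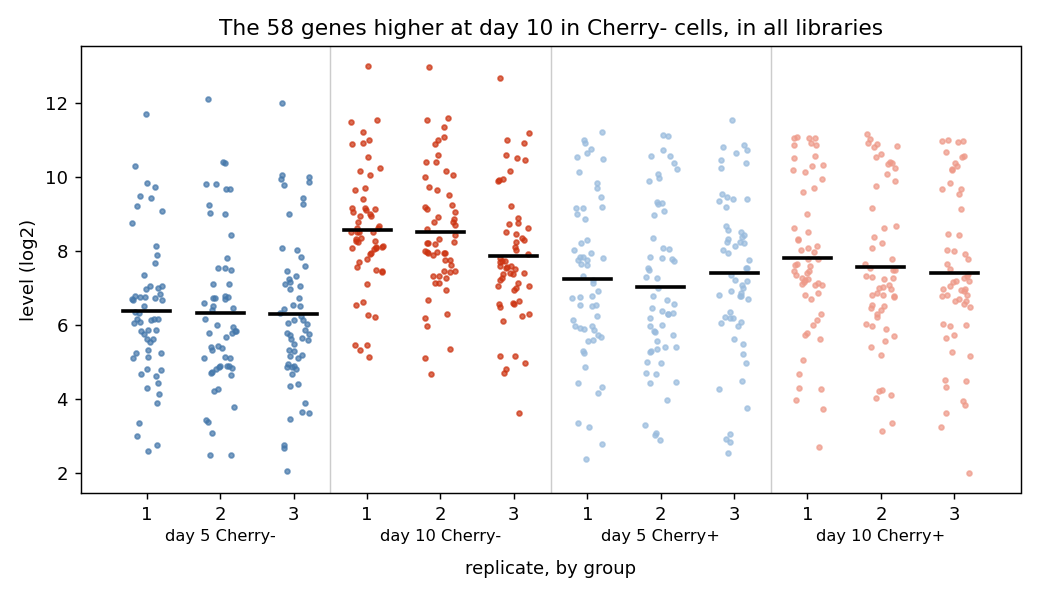
Levels (log2, vertical axis) of the 58 genes higher at day 10 in Cherry- cells, in each of the 12 libraries, with 1 point per gene and a black bar at the mean. The day 5 Cherry- bars lie between 6.31 and 6.39, day 10 Cherry- replicates 1 and 2 lie highest, and day 10 replicate 3 lies near the Cherry+ libraries.

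The largest rise was that of uc007kpq.1. Its level was 5.11, 4.90 and 5.32 in the 3 day 5 libraries and 8.52, 8.86 and 8.11 in the 3 day 10 libraries. Every day 10 library was at least 2.79 log2 units above every day 5 library. The difference was 3.39 ± 0.27 (SE), or 10.5-fold, with a 95% interval of 2.80 to 3.97 and a limma adjusted p of 0.00074. It passed the threshold in all 24 other fits run, with adjusted p between 5.87e-06 and 0.0114, and was the 1 gene of the 58 called whichever Cherry- library was left out. In Cherry+ cells the level was 5.92, 5.36 and 5.62 at day 5 and 7.42, 6.99 and 6.65 at day 10, a rise of 1.38 ± 0.27 (SE, adjusted p = 0.0246). That call was lost with the Cherry+ libraries alone (0.198), with quality weights (0.0844) and without day 5 Cherry+ replicate 2 (0.0528), day 5 Cherry+ replicate 3 (0.0616) or day 10 Cherry+ replicate 2 (0.104). The rise in Cherry- cells was larger by 2.00 log2 units (interval 1.18 to 2.83), which did not pass across all genes (adjusted p = 0.192). The choice of this gene by its Cherry- rise favours such a difference.

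The next was uc008vip.2, at 5.62, 4.81 and 4.88 in the day 5 libraries and 8.68, 8.19 and 7.74 in the day 10 libraries. The groups lay 2.12 log2 units apart at their nearest. The difference was 3.10 ± 0.39 (SE), or 8.59-fold, with an interval of 2.25 to 3.96 and an adjusted p of 0.0105 in limma. It missed the threshold when day 5 replicate 3 was left out (2.99, adjusted p = 0.0729), and likewise for day 10 replicate 1 (2.86, 0.0886) and day 10 replicate 2 (3.11, 0.0842), within a range of 1.63e-05 to 0.0886 over the 24 other fits. In Cherry+ cells it was 5.61, 5.74 and 6.99 at day 5 and 7.67, 7.04 and 7.20 at day 10, and its difference of 1.19 ± 0.39 (SE) had an adjusted p of 0.109. There the groups were close, since day 5 replicate 3 nearly reached the day 10 libraries. Among the fits run, the Cherry+ rise passed only without day 5 Cherry- replicate 1 and both Cherry+ replicates 3 (1.68, limma adjusted p = 0.0193). The rise in Cherry- cells was larger by 1.91 log2 units (interval 0.70 to 3.13), which the choice of the gene favours. This difference did not pass across all genes (limma interaction, adjusted p = 0.274).

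No gene passed the threshold as lower at day 10. The smallest adjusted p among genes lower at day 10 was 0.119, against 0.00074 among genes higher. The median difference of the 284 genes lower at an unadjusted p under 0.05 was -0.55 log2 units and 20 of them were at -1 or below, whereas the 927 higher genes had a median of 0.87 and 389 of at least 1. Other fits did call genes lower. A fit of the 6 Cherry- libraries alone called 17 genes lower, with a median of -0.77. Library quality weights, which change the group means as well as the spread, called 429, with a median of -0.53.

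Of the genes lower at an unadjusted p under 0.05 that reached a level of 5.64 in either group and whose groups did not overlap, the largest difference was that of uc008zzq.1, which missed the adjusted threshold. Its level was 9.47, 9.52 and 8.99 at day 5 and 6.69, 6.67 and 8.72 at day 10. The first pair of day 10 libraries was far below day 5, and replicate 3 was only 0.27 below the lowest day 5 library. The difference was -1.97 ± 0.76 (SE), with an interval of -3.63 to -0.31 and a limma adjusted p of 0.487. With library quality weights it was -2.47 (adjusted p = 0.00261), and the adjusted p over the 24 other fits ran from 0.00261 to 1. In Cherry+ cells the level was 8.74, 9.08 and 7.96 at day 5 and 8.85, 8.38 and 5.65 at day 10. There only replicate 3 was low at day 10, and the others overlapped with day 5.

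The second was uc008gom.1, which belongs to the 100 most abundant genes and had the largest fall among them. It was at 15.96, 15.41 and 16.07 at day 5 and at 15.10, 12.48 and 14.91 at day 10 in Cherry- cells. Day 10 replicate 2 was far below the others, which lay closer to day 5. The difference was -1.65 ± 0.56 (SE), with an interval of -2.88 to -0.41 and an adjusted p of 0.373, and it moved between -0.81 and -2.12 over the 24 other fits without passing in any. In Cherry+ cells the level was 12.64, 12.07 and 12.03 at day 5 and 10.16, 9.44 and 9.16 at day 10. The Cherry+ fall of -2.66 ± 0.56 (SE) passed in limma (adjusted p = 0.0295), but not with the Cherry+ libraries alone (0.198), with quality weights (0.223), without a filter on low values (0.0544), without day 5 Cherry- replicate 1 and both Cherry+ replicates 3 together (0.0562), or without any 1 Cherry+ library but day 10 replicate 1 (0.0532 to 0.119). The 2 changes were not shown to differ (1.01, interval -0.74 to 2.76, adjusted p = 0.719).

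**Figure D4:**
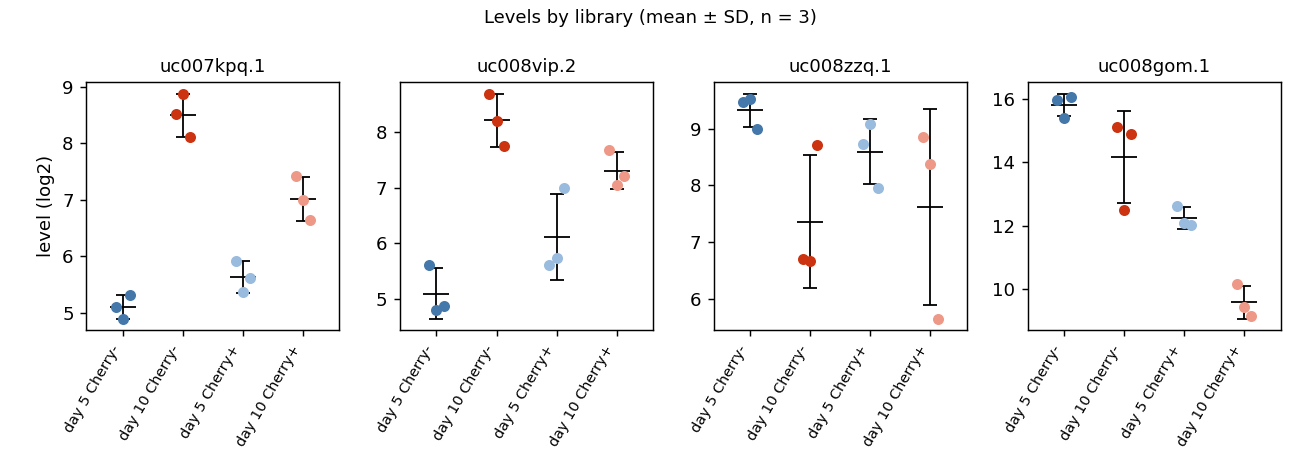
Levels (log2, vertical axes, each with its own range) of uc007kpq.1, uc008vip.2, uc008zzq.1 and uc008gom.1 in the 4 groups, with 1 point per library and the mean ± SD (n = 3) in black. For uc007kpq.1 and uc008vip.2 all day 10 Cherry- libraries lie above all day 5 ones, and for uc008zzq.1 and uc008gom.1 1 day 10 library sits apart from the other pair.

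The Cherry+ libraries allow the same change to be followed in labelled cells, with no library in common but with a shared estimate of the spread. Labelled cells had 695 calls between the days (4.39%), 214 up (1.35%) and 481 down (3.04%), a count that ran from 0 to 1655 with 1 library left out. The 58 genes had a mean level of 7.23 ± 0.20 at day 5 and 7.61 ± 0.20 at day 10 in Cherry+ cells (SD, n = 3), between the day 5 level of 6.34 ± 0.04 and the day 10 level of 8.32 ± 0.40 in Cherry- cells (SD, n = 3). Their differences in Cherry+ cells ran from -0.66 to 1.52, with 10 of at least 1 and 0 of -1 or below. The difference was larger in Cherry- than in Cherry+ cells in 57 of the 58 genes, which their choice by the Cherry- change favours.

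No gene passed the test of a different change in Cherry- and Cherry+ cells. The difference between the 2 changes passed in 0 of 15842 genes by the limma interaction (0%), and before adjustment 1613 genes (10.2%) had a p under 0.05. Among the 58 genes it had a median of 1.65 log2 units, and in 50 of them its interval excluded 0 before adjustment. Their choice by the Cherry- change, which is part of this difference, favours both values. The smallest adjusted p among the 58 was 0.192. The source names of the samples tie each Cherry- library to the Cherry+ library of the same day and number by a shared letter, whose meaning is not stated. With these 6 pairs as a block, a fit chosen after seeing the data, 0 genes passed and 1744 had an unadjusted p under 0.05 (smallest adjusted p 0.0752). The deviations of the paired libraries from their group means correlated between -0.14 and 0.57 over the genes tested. The median standard error of this difference over all genes, 0.31 log2 units, was larger than the 0.22 of the change in Cherry- cells. Of the 58 genes, 16 passed when day 5 Cherry- replicate 1 and the Cherry+ replicate 3 of both days were dropped, 9 when only day 5 Cherry+ replicate 3 was, 19 when day 10 Cherry+ replicate 1 was, and 7 under library quality weights. Over all genes the same fits called 603, 107, 161 and 18. The passes among the 58 are favoured by the same choice.

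By the order of their 4 group means the 58 genes fell into 3 patterns. In 39 the day 5 Cherry- mean was the lowest and the day 10 Cherry- mean the highest, with Cherry+ cells in between. Their median levels were 5.71 and 7.95 in Cherry- cells at day 5 and day 10, and 6.59 and 7.01 in Cherry+ cells. In 13 genes the day 5 Cherry- mean was again the lowest but a Cherry+ mean was the highest, with medians of 7.09 and 8.88 in Cherry- and 9.28 and 10.18 in Cherry+ cells. The median Cherry- level of these genes at day 10 was thus below both Cherry+ medians. This does not hold for every gene, since in some the day 10 Cherry- mean was above the day 5 Cherry+ mean. In the other 6 the day 10 Cherry- mean was the highest and a Cherry+ mean the lowest, with medians of 7.94 and 10.20 in Cherry- and 7.35 and 7.83 in Cherry+ cells. The first order was found in 2.05% of all genes tested, and the choice of the 58 by the Cherry- change favours it.

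The genes called between the days in Cherry+ cells were also read in Cherry- cells. They were chosen by their Cherry+ change, which favours a smaller value in Cherry- cells. The 695 calls became 0 when the Cherry+ libraries were fitted alone or with quality weights. Both changes share an estimate of the spread, and the source-name letters tie Cherry- to Cherry+ libraries within each day. The values in Cherry- cells are therefore not independent of the choice, and are given as a description. The 214 genes that rose in Cherry+ cells had a median difference of 0.15 log2 units in Cherry- cells, against 0.74 in Cherry+ cells and -0.0049 over all genes tested in Cherry- cells. Of these, 172 (80.4%) were above 0 in Cherry- cells, against 49.2% of all genes tested, and 51 (23.8%) were higher before adjustment at p under 0.05, where all genes gave 5.85%. The adjusted threshold was passed by 5 (2.34%), all upwards, against 0.366% of all genes. The 481 genes that fell in Cherry+ cells had a median of -0.25 in Cherry- and -1.41 in Cherry+ cells, and 383 (79.6%) were below 0 in Cherry- cells, against 50.8% of all genes. Of them 39 (8.11%) were lower in Cherry- cells before adjustment at p under 0.05, where all genes gave 1.79%, and limma called 0 after adjustment. The interval in Cherry- cells lay within 1 log2 unit of 0 for 173 of the 214 genes (80.8%) and 293 of the 481 (60.9%), against 73.8% of all genes.

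How many genes were called depended on the libraries and on the fit. Fitting the 6 Cherry- libraries alone gave 321 genes, 304 higher and 17 lower, with a median standard error of 0.15 log2 units against 0.22 when the more variable Cherry+ libraries shared the estimate. Weighting libraries by quality gave 1552 genes, 1123 up and 429 down. The weights were 5.75 for day 10 replicate 1 and 0.49 for day 5 replicate 1. Leaving out day 10 replicate 1 or day 10 replicate 2 left 1 call each. In both of these fits all 58 genes kept an unadjusted limma p under 0.05, which their choice favours. Their median differences there were 1.88 and 1.92 log2 units, and the median standard error over all genes was 0.25 in each. Dropping day 5 replicate 3 left 7 calls and dropping day 5 replicate 2 left 21. Dropping day 10 replicate 3 gave 124. Leaving out a labelled library, which enters only through the spread, gave 42, 48 and 245 for replicates 1, 2 and 3 of day 5 and 51, 39 and 108 for those of day 10. Without day 5 Cherry- replicate 1, the library with the offset, it was 40, of which 29 were among the 58. Of the 58 genes, 57 were among the 321 and 58 among the 1552.

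**Figure D5:**
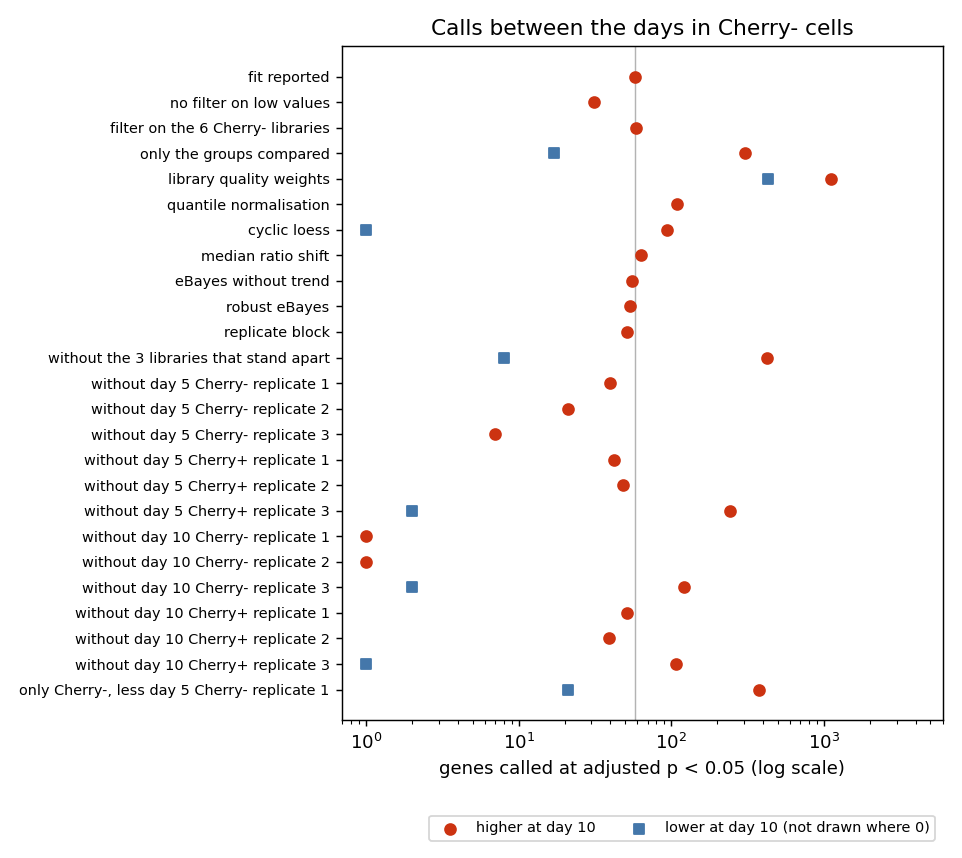
Number of genes called between the days in Cherry- cells (log scale, horizontal axis) in the fit reported and in 24 other fits (vertical axis), red circles for genes higher and blue squares for genes lower at day 10. Genes higher run from 1 to 1123 and outnumber genes lower in every fit drawn.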

How the data were processed

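Per the submitters' processing notes, the tools were Bowtie2, RSEM 1.2.29 and DESeq2 1.12.4, on mm10; their roles, and the transform behind the log2 values, are not given in the sources used here. The authors deposited log2 values for 32958 genes in 12 libraries, each gene at 0 in all libraries or in none. A shrunken transform would understate folds of low genes, which was not tested.

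Columns were matched to samples by source name. Genes with at least 3.32 in 3 of 12 libraries were tested with limma 3.58.1 in R 4.3.3, fitted to 4 groups with a variance prior that follows the level (8 residual degrees of freedom), two-sided, with Benjamini-Hochberg adjustment over 15842 genes and a threshold of 0.05. Folds are 2 to the power of the log2 difference. Named genes are the 2 largest rises and falls that reach 5.64 in the higher group and do not overlap between days; rises had to be called, and falls, none being called, to have an unadjusted p under 0.05. The comparison, gene lists and alternatives were chosen with earlier results of these data known. The marker and pathway lists were not run because no identifier has a name. The procedure was run on simulated data with independent noise, whose spread for a gene was equal in all libraries. Those data held no library offsets or pairs, so the run does not test the procedure under them. Figures were drawn with matplotlib 3.10.9.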

Additional observations from a re-analysis of the deposited data

How the results depend on the processing

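The count in Cherry- cells, 58 (58 higher, 0 lower), was 31 with no filter on low values, 321 (304 and 17) with only the groups compared, 1552 (1123 and 429) with quality weights, 110 after quantile normalisation, 95 (94 and 1) after cyclic loess and 431 (423 and 8) without 3 libraries that lay apart (the labelled replicate 3 of each day and day 5 Cherry- replicate 1). A Cherry- fit without day 5 replicate 1, chosen after seeing the data, gave 398 (377 and 21). With 1 library left out the count ran from 1 to 245, genes higher from 1 to 243 and genes lower from 0 to 2. The difference between the changes, 0 genes, was 18 with quality weights, 603 without the 3 libraries, and between 0 and 161 when a single library was dropped. For Cherry+ cells the 695 calls turned into 276 unfiltered, 0 with only the groups compared, 0 with quality weights, 196 with the replicate block, 1299 with the 3 libraries dropped, and between 0 and 1655 with a single library dropped. The excess distance between days, 0.0597, ran from -0.0216 to 0.142 with 1 left out and was -0.0098 without day 10 replicate 2. The filter changes the number of genes tested, and a fit of 6 libraries has its own spread and fewer degrees of freedom. For the remaining shifts the cause was not tested. The weights did not reach their set tolerance.

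The replicate numbers did not pair the Cherry- libraries across days, since same-numbered libraries correlated at -0.156, -0.585 and 0.366 in their deviations from the group means and not every library was closest to its own number. The replicate block gave 51 genes, of which 41 were among the 58. Of the 58, 31 were called in the 9 other fits to all 12 libraries and in the fit to the 6 Cherry- libraries. Of 96 values of the 4 named genes in other fits, 92 had the same direction and call, 3 (uc008vip.2) lost the call, 1 (uc008zzq.1) gained it and 0 changed direction. Fits that change only the filter or the spread keep the difference of a gene, so its direction could not change in them.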

Other observations

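The wider list of the fit to the 6 Cherry- libraries alone described a smaller change than the 58 genes. Its 304 genes higher at day 10 had a median difference of 1.38 log2 units, with 224 of at least 1, and median levels of 7.10 at day 5 and 8.63 at day 10. Its 17 genes lower had differences between -1.46 and -0.48, with 3 of -1 or below, and lay at higher levels, with medians of 9.90 at day 5 and 9.41 at day 10. Of the 304 higher genes, 294 were also called with library quality weights, and of the 17 lower genes, 13 were. With those weights 1123 of the 15842 genes tested were called higher and 429 lower. The fit with quality weights takes its weights and spread from all 12 libraries. Both fits measure the change in the same 6 Cherry- libraries, so this overlap is not independent evidence.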
